A study of Mus musculus with 21 samples.

Results

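The transcripts of 7 mouse genes were followed: the calcium-regulated transcription factor genes Nfatc1, Nfatc2, Nfatc3 and Nfatc4, their relative Nfat5, the calcineurin inhibitor gene Rcan1 and the calcineurin subunit gene Ppp3ca. They were named by symbol in a pair of Affymetrix value tables, 7 of 18193 named genes in one and 7 of 12393 in the other, and each gene was read from the brightest of its probe sets, judged by the mean of a table's arrays. The list was chosen by measured values of these same arrays, without record of which contrast was used. The 2 h response to TGF-b1, in which Nfatc2 stood near the top, was taken to be that contrast, an assumption, and its values are given as a description without a test; the p-values of the other comparisons rest on this assumption and are not independent of earlier results of these data. Nfatc1 to Nfatc4 encode proteins that stay phosphorylated in the cytoplasm until calcium entry activates calcineurin, a phosphatase that removes the phosphates and lets them enter the nucleus. Kinases such as GSK3, DYRK and casein kinase 1 reverse this step. RCAN1 binds calcineurin and restrains it, and an inner promoter of Rcan1 is a textbook target of NFAT itself. NFAT5 shares the DNA-binding domain but responds to osmotic stress and does not depend on calcineurin. NFAT proteins are best known from lymphocytes and are also present in epithelial cells.

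The cells were mouse mammary epithelial cells. NMuMG cultures received 200 µM of the RNA label 4sU (4-thiouridine), which all of them carried, alone or with 5 ng/ml of the cytokine TGF-b1 for 2 h. Total RNA and 4sU-labelled, newly made RNA enriched on a mercury-based matrix were each measured on 3 arrays per condition, 12 arrays in 4 groups. NM18 cultures were transfected with 25 nM siRNA, either the control labelled ns-siRNA or one against FoxQ1, for 8 h, TGF-b1 at 5 ng/ml was then given for 40 h, and RNA was taken at 48 h; the 9 arrays formed 3 groups of 3 (ns-siRNA, ns-siRNA with TGF-b1, FoxQ1 siRNA with TGF-b1). No group had FoxQ1 siRNA without TGF-b1. For array 1 of ns-siRNA alone a free-text note also speaks of TGF-b1, while its title and treatment label do not; the title was followed. Nothing in the labels says whether the arrays of a group came from separate cultures, so p-values measure the spread between arrays only.

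Foxq1 itself had 8.26 ± 0.31 on the deposited log2 scale (mean ± SD, n = 3, as throughout) with ns-siRNA, 9.15 ± 0.16 with ns-siRNA and TGF-b1 and 7.88 ± 0.27 with FoxQ1 siRNA and TGF-b1, 2.42-fold lower than the matched control (adjusted p = 0.000291). Of 7 epithelial markers all were measured, and their mean per array lay between 9.01 and 10.2 in NMuMG and between 9.89 and 10.5 in NM18, while the means of the osteoclast and endothelial lists lay between 4.70 and 5.13 in NMuMG and between 5.75 and 5.98 in NM18. Means of the muscle and fibroblast lists lay between 5.43 and 5.82 in NMuMG and between 5.92 and 6.58 in NM18. Those of the leukocyte list were higher, 6.02 to 6.41 in NMuMG and 6.85 to 6.98 in NM18. Ptprc, the defining leukocyte marker, had 3.94 to 4.04 in the NMuMG groups, below the lower quartile of every array (4.65 to 4.77), and 5.77 to 6.11 in NM18, where the highest such quartile was 6.11. Cd14, on the same list, was high in both lines (9.45 to 11.6).

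Promoter sequence was held for 5 of the 7 genes in the RefSeq promoter table (build GRCm38.p6); Nfatc1 and Ppp3ca had no entry. The 250 bases before each start of the 2 genes with the clearest link to the results are shown, Nfatc2 because of its large 2 h difference and Rcan1 because its inner start is the one described as NFAT-driven. Capitals mark GGAAA, the core of the NFAT site, and its reverse complement TTTCC.
Nfatc2 outer start, chr2:168601658-168601907, minus strand: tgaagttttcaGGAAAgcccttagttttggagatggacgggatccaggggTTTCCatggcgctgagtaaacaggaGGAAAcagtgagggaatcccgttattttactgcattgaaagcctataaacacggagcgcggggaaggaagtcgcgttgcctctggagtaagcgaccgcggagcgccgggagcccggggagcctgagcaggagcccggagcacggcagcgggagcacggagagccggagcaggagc
Nfatc2 inner start, chr2:168590366-168590615, minus strand: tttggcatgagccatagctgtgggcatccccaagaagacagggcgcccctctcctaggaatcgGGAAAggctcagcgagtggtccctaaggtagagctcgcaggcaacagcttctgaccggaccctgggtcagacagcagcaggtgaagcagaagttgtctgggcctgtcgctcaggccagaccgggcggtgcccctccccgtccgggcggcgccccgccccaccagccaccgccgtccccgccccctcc
Rcan1 outer start, chr16:92466170-92466419, minus strand: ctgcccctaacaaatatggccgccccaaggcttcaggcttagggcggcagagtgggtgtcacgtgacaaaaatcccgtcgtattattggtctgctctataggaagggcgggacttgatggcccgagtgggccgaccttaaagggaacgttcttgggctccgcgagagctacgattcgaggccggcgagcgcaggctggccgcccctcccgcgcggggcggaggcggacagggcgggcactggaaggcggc
Rcan1 inner start, chr16:92400079-92400328, minus strand: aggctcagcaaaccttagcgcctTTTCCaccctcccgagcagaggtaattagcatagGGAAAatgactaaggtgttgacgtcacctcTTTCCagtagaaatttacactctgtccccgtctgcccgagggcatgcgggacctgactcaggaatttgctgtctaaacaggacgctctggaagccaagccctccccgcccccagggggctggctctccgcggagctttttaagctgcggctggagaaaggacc
The inner Rcan1 start had 3 matches, beginning 227, 193 and 163 bases before it, and the outer start had 0. The outer Nfatc2 start also had 3 matches and the inner one had 1. Nfatc4, which did not separate by treatment at 2 h, had 3 before its start as well. Of all 32851 starts in the table, 55.6% had at least 1 match on either strand in this window and 6.39% had 3 or more. The letters CAGAC or their reverse complement GTCTG, part of the SMAD site, occurred 3 times before the inner Nfatc2 start and 0 times before the outer one. They occurred once before each Rcan1 start, and 3 times before one Nfatc3 start, a gene whose treated and control arrays overlapped at 2 h. Of all starts 42.2% had at least 1 such match and 2.32% had 3 or more. A match describes these letters only. The probe sets do not tell which start a transcript used.

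After 2 h of TGF-b1, Nfatc2 was the member with the highest difference. Its probe set 1439205_at read 7.48, 7.45 and 7.29 in total RNA of control cells and 10.35, 10.41 and 10.01 with TGF-b1. In newly made RNA the control arrays read 7.65, 7.73 and 7.62 and the TGF-b1 arrays 10.43, 10.86 and 10.41. All TGF-b1 arrays lay above all control arrays, a log2 difference of 2.85 ± 0.14 (SE) in total RNA, or 7.20-fold, and of 2.89 ± 0.14 in newly made RNA, or 7.44-fold, the second highest of all genes in both kinds of RNA. In these bulk cultures more cells with the transcript and more transcript per cell cannot be told apart.

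The other 5 probe sets of Nfatc2 gave much smaller differences. Probe set 1426032_at differed by 0.72 ± 0.15 in total RNA and 0.24 ± 0.15 in newly made RNA, and 1426031_a_at by 0.34 ± 0.13 and 0.53 ± 0.13. The remaining 3 lay between -0.18 and 0.27. With the mean of all 6 probe sets standing for the gene, the difference was 0.64 in total and 0.63 in newly made RNA. A pair of the lowest, 1425990_a_at and 1440426_at, read 4.41 to 4.77, around the lower quartile of the arrays. The array used for NM18 carries 4 of these 6 probe sets and lacks 1439205_at.

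Nfatc1 was also higher. Its arrays read 7.95, 8.13 and 7.90 in total RNA of control cells and 8.90, 8.99 and 8.79 with TGF-b1, and 7.83, 8.30 and 8.54 against 8.82, 9.51 and 9.44 in newly made RNA. The groups did not overlap in either kind of RNA, and the differences were 0.90 ± 0.19 and 1.03 ± 0.19. All 5 probe sets of Nfatc1 lay above 0 in both, from 0.14 to 0.90 in total RNA and from 0.36 to 1.03 in newly made RNA.

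**Figure D1:**
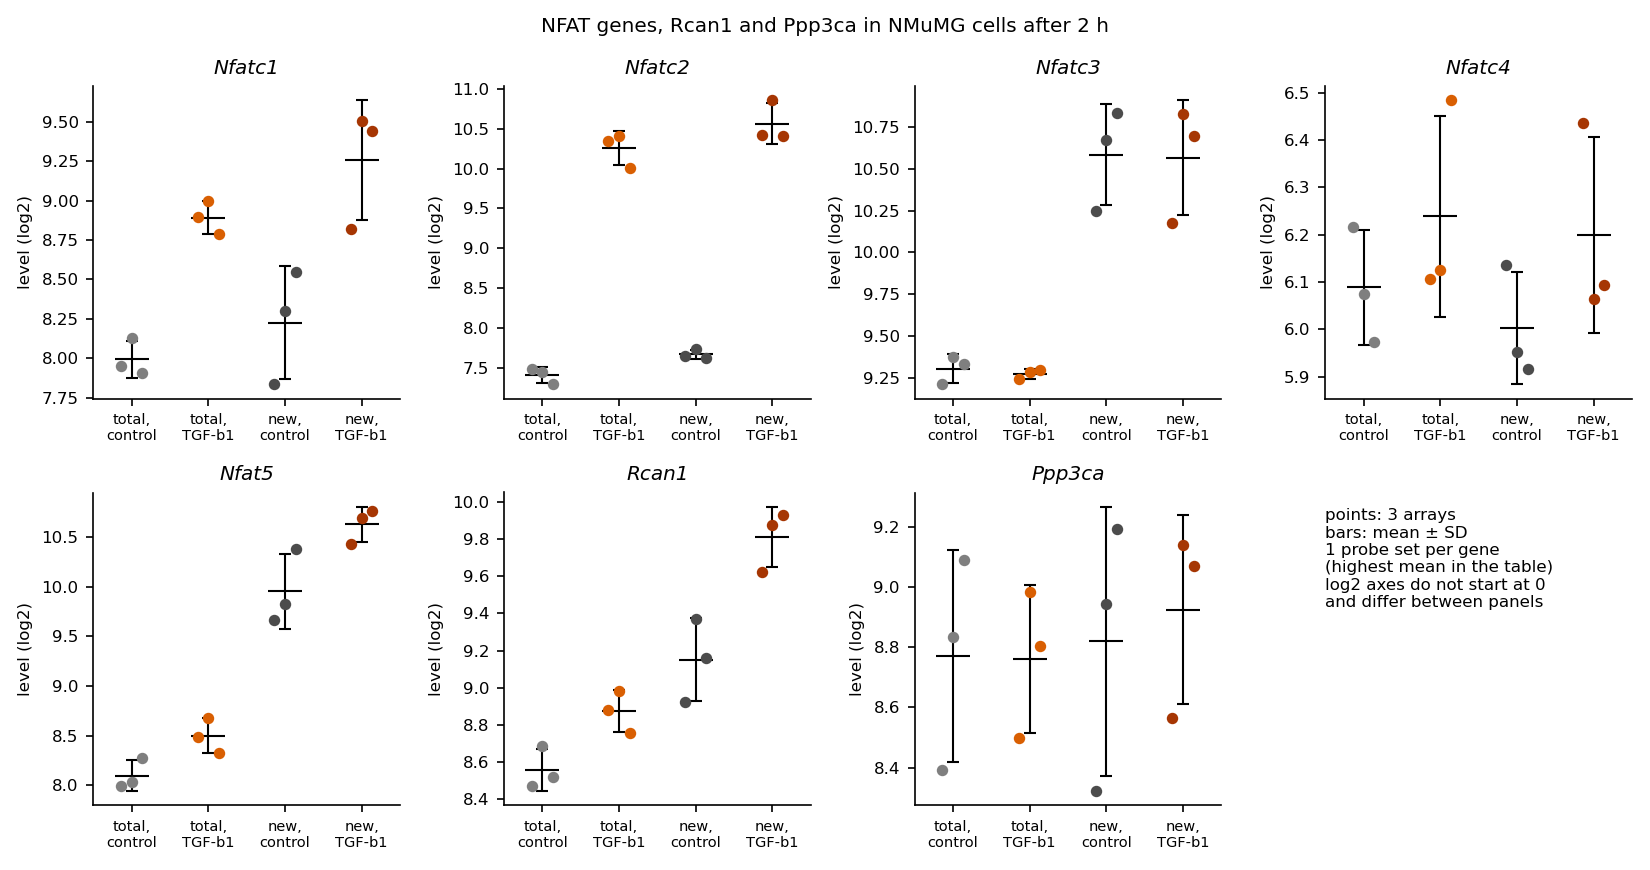
Deposited log2 level (vertical axis, a separate log2 axis per gene) of the 7 genes in the 4 NMuMG groups; points are the 3 arrays of a group and bars the mean ± SD. Nfatc2 separates by treatment in both kinds of RNA, while Nfatc3 separates by kind of RNA and Nfat5 and Rcan1 by both.

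Rcan1 and Nfat5 gave smaller differences. Rcan1 read 8.47, 8.69 and 8.52 in total RNA of control cells against 8.88, 8.98 and 8.76 with TGF-b1, and 8.92, 9.37 and 9.16 against 9.63, 9.88 and 9.93 in newly made RNA. The groups did not overlap, with differences of 0.32 ± 0.13 and 0.66 ± 0.13. Its second probe set, 1416601_a_at, read between 4.80 and 5.04 as group means, with differences of 0.23 and -0.01. Nfat5 differed by 0.40 ± 0.17 in total RNA (7.99, 8.03 and 8.27 against 8.49, 8.68 and 8.33) and by 0.68 ± 0.17 in newly made RNA (9.66, 9.82 and 10.37 against 10.43, 10.69 and 10.76), again without overlap. With the mean over its 6 probe sets the differences of Nfat5 were 0.19 and 0.34.

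Nfatc3, Nfatc4 and Ppp3ca overlapped between treated and control arrays in both kinds of RNA. Their differences were -0.03, 0.15 and -0.01 in total RNA and -0.02, 0.20 and 0.11 in newly made RNA, with standard errors of 0.14 to 0.22. By the rule used for all genes (limma, Benjamini-Hochberg adjusted p under 0.05), 4 of the 7 were called higher in newly made RNA, where 3.35% of all genes were, and 2 of 7 in total RNA, where 1.46% were; 0 were called lower, against 2.79% and 1.02% of all genes. Since this contrast was taken to have chosen the genes, nothing is read from these counts. Among cell type markers, in newly made RNA Krt19 changed by -1.09, Cd14 by -0.64 and Col1a1 by 0.79, each called, and in total RNA no epithelial, leukocyte or fibroblast marker was called by limma (0, 1 and 2 at an unadjusted p under 0.05); their part in the NFAT values was not tested.

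The difference of the 2 h responses, newly made minus total RNA, was 0.35 for Rcan1 (95% interval -0.05 to 0.75), 0.28 for Nfat5 (-0.23 to 0.78), 0.13 for Nfatc1 (-0.42 to 0.69) and 0.05 for Nfatc2 (-0.37 to 0.47). No member was called here, in a comparison that called 0.066% of all genes (12 genes by limma), and 0 of the 7 had an unadjusted p under 0.05. On the probe sets that stand for the genes, the intervals leave room for responses that differ by up to 0.47 for Nfatc2 and 0.75 for Rcan1. Other probe sets went further or the other way. Nfatc2 had -0.48 on 1426032_at (-0.93 to -0.04, unadjusted p = 0.0358, limma over all probe sets, not called after adjustment). Its remaining probe sets lay between -0.20 and 0.31. The second probe set of Rcan1 gave -0.25 (-0.61 to 0.12).

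The next comparison set newly made against total RNA within a treatment. Nfat5, Nfatc3 and Rcan1 were higher in newly made RNA, with and without TGF-b1. Nfat5 had 8.10 ± 0.15 in total and 9.95 ± 0.37 in newly made RNA of control cells, a difference of 1.85 ± 0.17 (3.61-fold, adjusted p = 1.48e-07), and with TGF-b1 the difference was 2.13 ± 0.17 (4.38-fold, adjusted p = 2.98e-08). All 6 of its probe sets lay above 0 in both, from 0.13 and 0.10 for 1426029_a_at to 2.90 and 3.18 for 1439805_at. Of the 6, 4 were called in control and 5 in TGF-b1-treated cells (limma over all probe sets). Probe set 1439805_at had 6.09 ± 0.15 in total and 8.99 ± 0.08 in newly made RNA of control cells. Nfatc3 had 9.30 ± 0.08 and 10.59 ± 0.30 in control cells, a difference of 1.28 ± 0.17 (adjusted p = 7.29e-06), with 1.29 ± 0.17 under TGF-b1 (adjusted p = 6.05e-06), and its second probe set gave 1.47 and 1.67. Rcan1 differed by 0.59 ± 0.13 in control (adjusted p = 0.00144) and by 0.94 ± 0.13 in TGF-b1-treated cells (adjusted p = 1.72e-05). Its second probe set, near the lower quartile of the arrays, gave 0.00 and -0.24, and the mean of both gave 0.30 (adjusted p = 0.0183) and 0.35 (adjusted p = 0.00684).

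Nfatc1, Nfatc2, Nfatc4 and Ppp3ca did not pass the test in this comparison, with differences from -0.09 to 0.26 in control and from -0.04 to 0.36 in TGF-b1-treated cells. Thus 3 of 7 members were called higher in each, where 17.2% of all genes were in control and 18.3% in TGF-b1-treated cells. The probe sets of Ppp3ca disagreed: 1426401_at, which stands for the gene, had 0.05 and 0.16, and 1438478_a_at had 0.91 and 1.01. Those of Nfatc2 and Nfatc1 disagreed as well. With TGF-b1, Nfatc2 had -0.50 on 1426032_at (adjusted p = 0.0108, limma over all probe sets) and 0.33 on 1426031_a_at (adjusted p = 0.0488). In control and TGF-b1-treated cells, Nfatc1 had 0.90 (adjusted p = 0.00293, limma over all probe sets) and 0.85 (0.00430) on 1447084_at. On 1447085_s_at it had 0.38 (0.0880) and 0.73 (0.00230), and on 1425761_a_at -0.25 (0.121) and -0.29 (0.0745). An array sets transcripts against one another, so these differences are relative to other genes: the median over all genes was -0.08 in both comparisons as deposited, and 0.03 and 0.04 after centring each array on its median. Centred this way, Nfatc2 was called in control (0.37, adjusted p = 0.0408) and in TGF-b1-treated cells (0.43, adjusted p = 0.0186), and Nfatc1 in TGF-b1-treated cells (0.48, adjusted p = 0.0402). After quantile normalization, Nfatc1 (0.42, adjusted p = 0.0340) and Nfatc2 (0.44, adjusted p = 0.00912) were called in control and Nfatc1 in TGF-b1-treated cells (0.47, adjusted p = 0.0180). Same-numbered arrays as a block also called Nfatc1 (adjusted p = 0.0495) and Nfatc2 (adjusted p = 0.0437) in TGF-b1-treated cells, and so did leaving out array 1 of newly made TGF-b1 RNA for Nfatc1 (0.58, adjusted p = 0.00966). Epithelial markers differed here too (in control cells Krt19 by -2.79 and Cdh1 by -1.08, newly made minus total); their relation to the NFAT genes was not tested.

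**Figure D2:**
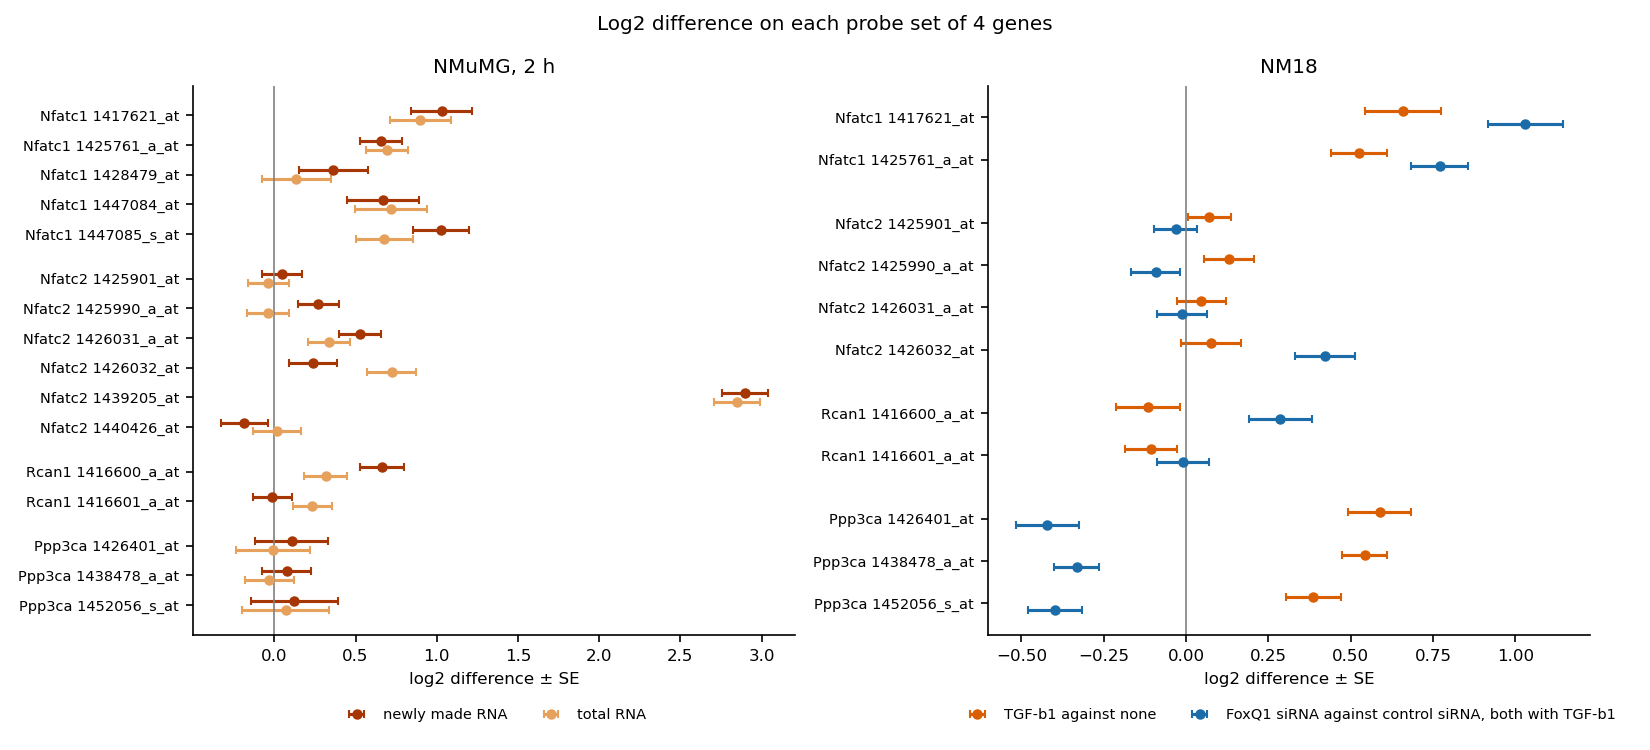
Log2 difference ± SE (horizontal axis) on every probe set of Nfatc1, Nfatc2, Rcan1 and Ppp3ca, left for TGF-b1 against control after 2 h in NMuMG cells in each kind of RNA, right for TGF-b1 and for FoxQ1 siRNA in NM18 cells. The 2.89 and 2.85 of Nfatc2 are those of probe set 1439205_at, which has no counterpart on the right, while all probe sets of Nfatc1 and of Ppp3ca keep 1 side of 0 within each NM18 comparison.

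In NM18 cells after 40 h of TGF-b1, Nfatc1, Nfat5 and Ppp3ca rose and no member fell. Nfatc1 read 7.84, 7.83 and 7.40 with ns-siRNA alone and 8.24, 8.34 and 8.46 with TGF-b1. The groups did not overlap, and the rise was 0.66 ± 0.11 (1.58-fold, adjusted p = 0.00104), with 0.53 on its second probe set. Ppp3ca, the catalytic alpha subunit of calcineurin, read 8.42, 8.28 and 8.58 and then 9.04, 8.90 and 9.11, a rise of 0.59 ± 0.10 (adjusted p = 0.000685) seen on all 3 of its probe sets (0.39 to 0.59). Nfat5 read 8.25, 8.83 and 8.11 and then 9.03, 9.30 and 8.98, a rise of 0.71 ± 0.19 (adjusted p = 0.0139). The call of Nfat5 was lost without array 1 (adjusted p = 0.0550) or array 3 (0.0628) of ns-siRNA, without array 2 of ns-siRNA with TGF-b1 (0.0556), and with the mean of its 4 probe sets (0.19, adjusted p = 0.183).

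Nfatc2, Nfatc3, Nfatc4 and Rcan1 did not pass the test at 40 h. Nfatc2 had 7.42 ± 0.11 with ns-siRNA and 7.49 ± 0.05 with TGF-b1, a difference of 0.08 with a 95% interval of -0.12 to 0.27 on probe set 1426032_at. In NMuMG cells the same probe set had 7.08 ± 0.17 and 7.80 ± 0.30 in total RNA at 2 h, but cell line, time and labelling all differ between the tables, so no comparison is made. Rcan1 had 8.50 ± 0.16 and 8.39 ± 0.15, a difference of -0.11 (-0.33 to 0.10), and Nfatc3 differed by 0.04 (-0.12 to 0.20). Nfatc4 had 7.04 ± 0.03 against 7.18 ± 0.03 with no overlap between the groups, and the difference of 0.14 ± 0.06 had an adjusted p of 0.0844, or 0.0490 with same-numbered arrays as a block and 0.0251 after quantile normalization. The other probe sets of Nfatc4 gave -0.02, 0.01 and 0.00, and its alternatives went down to 0.03, with adjusted p up to 0.781. In all, 3 of 7 members were called higher, against 13.2% of all genes, and 0 were called lower, against 17.5%. In the same comparison 2 of 7 epithelial markers changed: Krt19 fell by 3.11 and Cdh1 fell by 1.04, and the mean of the list went from 10.5 on every array to between 9.89 and 9.96. Of 6 leukocyte markers Cd14 fell by 1.09 and Csf1r and Cd3e rose by 0.36 and 0.20, with list means of 6.93 to 6.97 before and 6.85 to 6.88 with TGF-b1, and of 5 fibroblast markers Col1a1 rose by 0.91, with list means of 5.92 to 6.06 and 6.19 to 6.28. The part of these markers in the NFAT results was not tested.

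**Figure D3:**
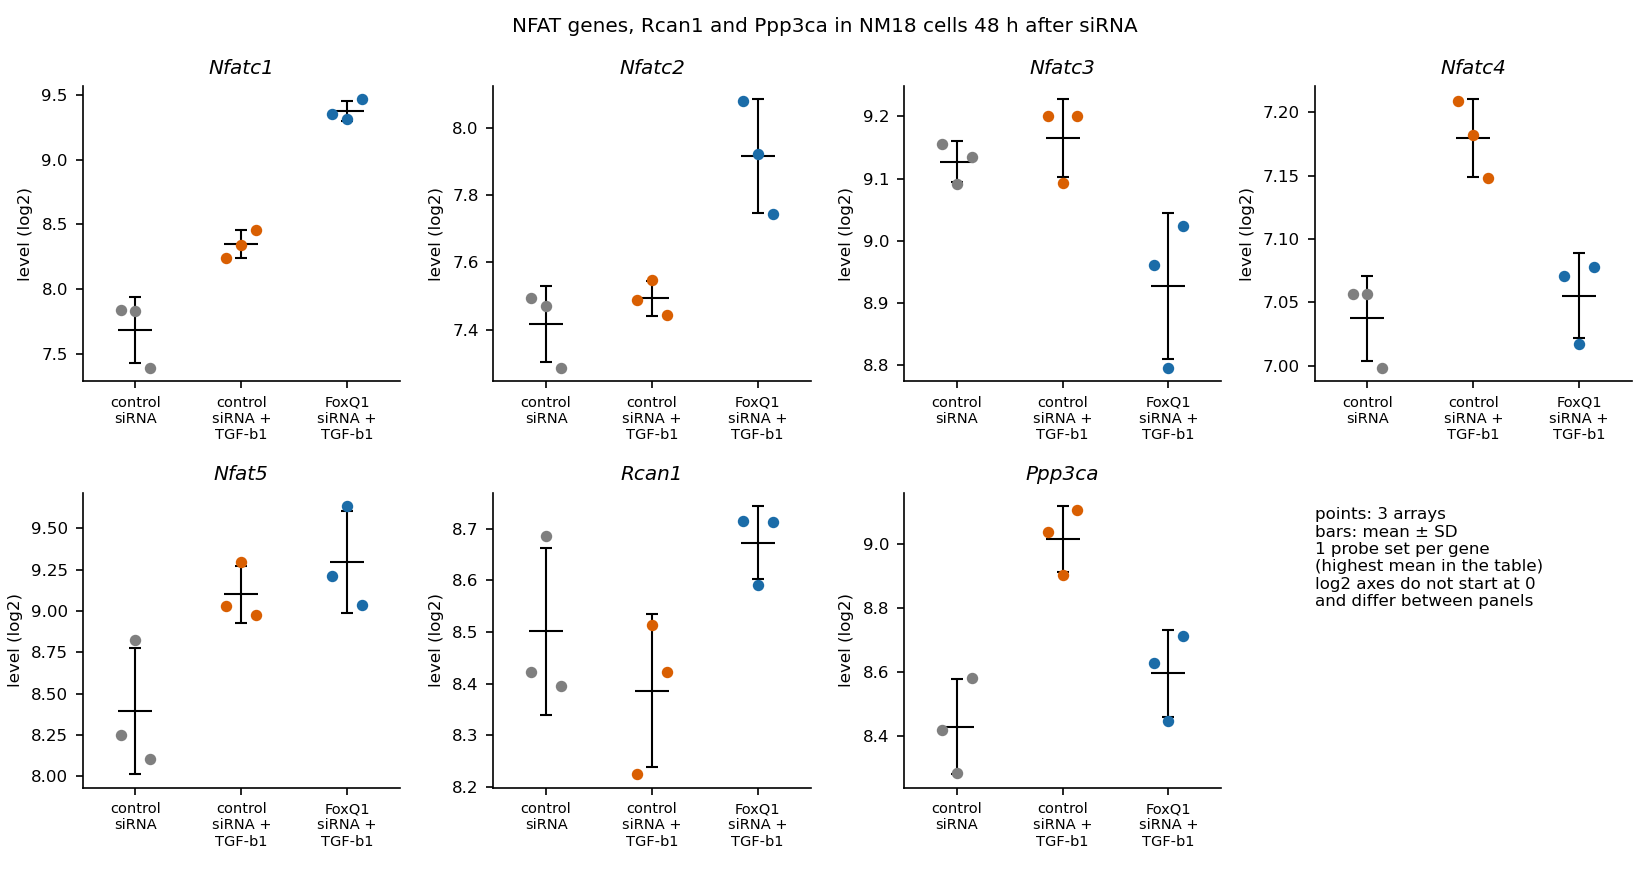
Deposited log2 level (vertical axis, a separate log2 axis per gene) of the 7 genes in the 3 NM18 groups; points are the 3 arrays of a group and bars the mean ± SD. Nfatc1 steps up from ns-siRNA (labelled control siRNA) through TGF-b1 to FoxQ1 siRNA with TGF-b1 without overlap, and Ppp3ca is highest with control siRNA and TGF-b1.

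With FoxQ1 siRNA in the presence of TGF-b1, Nfatc1 and Nfatc2 rose and Ppp3ca and Nfatc3 fell. The Nfatc1 arrays read 9.35, 9.31 and 9.46 with FoxQ1 siRNA against 8.24, 8.34 and 8.46 with ns-siRNA, an increase of 1.03 ± 0.11 (2.04-fold, adjusted p = 0.000101), and 0.77 on its second probe set. Nfatc2 read 8.08, 7.92 and 7.74 against 7.49, 7.55 and 7.44, all above the control arrays, a rise of 0.42 ± 0.09 (1.34-fold, adjusted p = 0.00683). That rise was on 1 of its 4 probe sets, the others lying between -0.09 and -0.01, and the mean of the 4 gave 0.07 (adjusted p = 0.521). Ppp3ca fell by 0.42 ± 0.10 (8.63, 8.45 and 8.71 against 9.04, 8.90 and 9.11; adjusted p = 0.00919), and its 3 probe sets ranged from -0.42 to -0.33.

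Nfatc3 read 8.96, 8.80 and 9.02 against 9.20, 9.09 and 9.20, a difference of -0.24 ± 0.07 (adjusted p = 0.0376). This call was lost in 7 of 13 alternatives, with adjusted p between 0.0562 and 0.129, among them leaving out array 1 (0.129) or 3 (0.114) of ns-siRNA with TGF-b1 and array 1 (0.0717) or 2 (0.124) of FoxQ1 siRNA. The second probe set of Nfatc3 gave -0.13 and was not called. Rcan1 read 8.72, 8.59 and 8.71 against 8.22, 8.51 and 8.42, without overlap, a difference of 0.29 ± 0.10 that missed the threshold (adjusted p = 0.0600). It passed with same-numbered arrays as a block (0.0347), in a fit on these 2 groups alone (0.0416), among genes above the median level (0.0474) and without array 2 of ns-siRNA with TGF-b1 (0.35, adjusted p = 0.0451). The second probe set of Rcan1 gave -0.01, and the alternatives for Rcan1 went down to 0.14, with adjusted p up to 0.252. Nfatc4 had -0.12 (95% interval -0.25 to 0.00, adjusted p = 0.168) and Nfat5 0.19 (-0.22 to 0.61, adjusted p = 0.571). So 2 of 7 members were called higher, against 11.3% of all genes, and 2 were called lower, against 8.28%.

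Markers moved in this comparison too. Of the 7 epithelial markers Cdh1 rose by 1.05 and Epcam by 0.66, with a list mean of 9.89 to 9.96 on the control arrays and 10.1 to 10.4 with FoxQ1 siRNA. Of 6 measured leukocyte markers, Cd14 rose by 0.59 and Ptprc by 0.35, with list means of 6.85 to 6.88 and 6.94 to 6.98. The median difference of this list was -0.02, and Ptprc lay near the lower quartile of the arrays. The part of these changes in the NFAT results was not tested. The TGF-b1 and siRNA comparisons share the 3 arrays of ns-siRNA with TGF-b1, which lie on opposite sides of them, so for Ppp3ca the rise in one and the decrease in the other are not independent.

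Against ns-siRNA without TGF-b1, the FoxQ1 siRNA arrays with TGF-b1 had 1.69 ± 0.11 more Nfatc1 (3.22-fold, adjusted p = 6.45e-07), 0.90 ± 0.19 more Nfat5 (adjusted p = 0.00257; 0.29 with adjusted p = 0.0394 for the mean of its 4 probe sets, the others of which gave 0.02, 0.05 and 0.19) and 0.50 ± 0.09 more Nfatc2 (adjusted p = 0.000999, or 0.0817 with the mean of its probe sets). Nfatc3 differed by -0.20 ± 0.07 (adjusted p = 0.0466), a call lost in 10 of 13 alternatives (adjusted p up to 0.478), among them leaving out array 1 (0.122), 2 (0.0636) or 3 (0.101) of ns-siRNA and array 1 (0.0765) or 2 (0.168) of FoxQ1 siRNA. The second probe set of Nfatc3 gave 0.04, on the other side of 0. Ppp3ca was 0.17 above the untreated level (95% interval -0.04 to 0.38, adjusted p = 0.214, or 0.0204 with same-numbered arrays as a block), Rcan1 0.17 (adjusted p = 0.203, or 0.0424 without array 2 of ns-siRNA) and Nfatc4 0.02. The second probe set of Rcan1 gave -0.12 here. The other probe sets of Ppp3ca disagreed, with 0.21 on 1438478_a_at (adjusted p = 0.0342, limma over all probe sets) and -0.01 on 1452056_s_at. Of the 7 members 3 were called higher, where 19.3% of all genes were, and 1 lower, where 18.6% were.

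**Figure D4:**
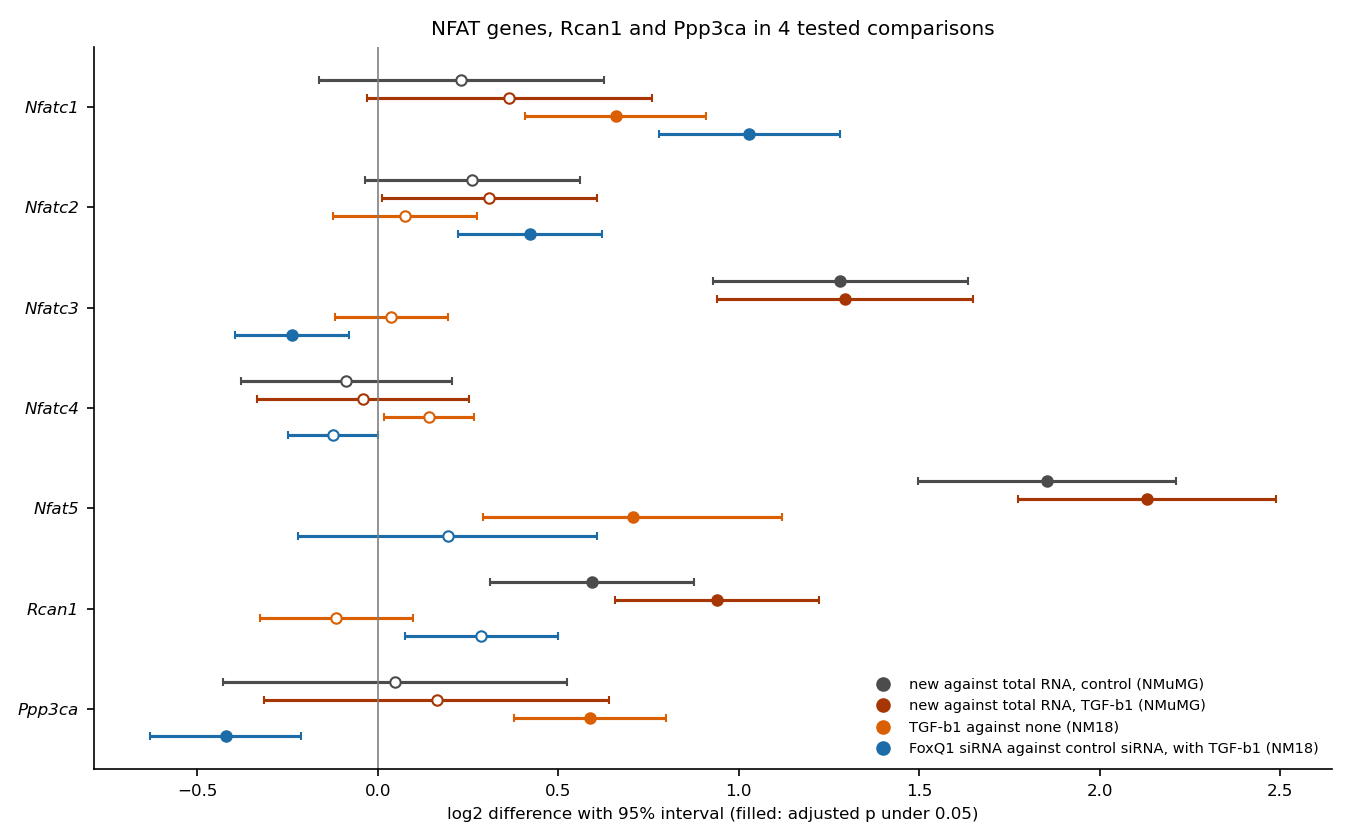
Log2 difference with its 95% interval (horizontal axis) for each of the 7 genes in 4 comparisons: newly made against total RNA in control and in TGF-b1-treated NMuMG cells, TGF-b1 for 40 h in NM18 cells, and FoxQ1 siRNA in TGF-b1-treated NM18 cells; filled points passed an adjusted p of 0.05. Nfatc1 lies above 0 in both NM18 comparisons, Ppp3ca on opposite sides, and Nfat5 and Nfatc3 have their largest differences between the kinds of RNA.

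Other genes that act with NFAT are given with the shares called over all genes at 2 h (3.35% higher and 2.79% lower in newly made RNA; for total RNA 1.46% and 1.02%), beside which counts of 0 in lists of this size are no result about them. Of 9 measured genes of other calcineurin subunits and regulators (Ppp3cb, Ppp3r1, Rcan2, Rcan3 and others) 0 were called by limma in either kind of RNA, with 1 in newly made and 0 in total RNA at an unadjusted p under 0.05 and medians of 0.02 and -0.08, against -0.01 and -0.03 over all genes. Of 14 NFAT kinases and export factors 0 were called, with 1 and 0 at an unadjusted p under 0.05 and medians of 0.15 and 0.10. Of 12 genes of store-operated calcium entry and release, in newly made RNA the channel gene Orai2 rose by 0.54 ± 0.12 (adjusted p = 0.0136) and its relative Orai1 fell by 0.55 ± 0.14 (adjusted p = 0.0227); in total RNA 0 were called by limma and 2 had an unadjusted p under 0.05. The medians of that list were 0.03 and -0.05.

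In NM18 cells the shares called over all genes were larger as well (13.2% higher and 17.5% lower with TGF-b1, 11.3% and 8.28% with FoxQ1 siRNA). With TGF-b1 for 40 h, 5 of 13 kinases and export factors rose and 1 fell, among them the casein kinase genes Csnk1e (0.76 ± 0.12, adjusted p = 0.000488) and Csnk1d (0.44 ± 0.08, adjusted p = 0.00114), and Xpo1, the nuclear exporter, which fell by 0.52 ± 0.08 (adjusted p = 0.00059). With FoxQ1 siRNA 3 fell, with Mapk14 at -0.70 ± 0.10 (adjusted p = 0.000526), Csnk1d at -0.32 and Xpo1 at -0.34. Itpr3, a calcium release channel of the endoplasmic reticulum, rose by 0.87 ± 0.09 with TGF-b1 (adjusted p = 4.27e-05) and fell by 0.87 ± 0.09 with FoxQ1 siRNA (adjusted p = 7.8e-05), again over shared arrays. Plcg2, a phospholipase, rose by 0.61 and Stim1, the calcium sensor of the store, by 0.35 with TGF-b1, which made 3 of 8 genes of calcium entry and release higher and 0 lower. Of 6 measured calcineurin genes Ppp3cc fell by 0.28 with TGF-b1 and Rcan3 rose by 0.28 with FoxQ1 siRNA. With TGF-b1 the medians of the kinase, calcium and calcineurin lists were 0.00, 0.11 and 0.01, and with FoxQ1 siRNA -0.03, 0.08 and 0.10, each beside a median of 0.00 over all genes.

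Of 17 measured genes described as NFATc targets, 2 were called higher at 2 h in both kinds of RNA. Over all genes 3.35% were called higher in newly made and 1.46% in total RNA. Egr2, a zinc-finger transcription factor, rose by 2.50 ± 0.36 in newly made (adjusted p = 0.000282) and 1.88 ± 0.36 in total RNA (adjusted p = 0.00589), and Csf2, the GM-CSF gene, by 0.47 and 0.61. In NM18 cells with TGF-b1, Ptgs2, the inducible cyclooxygenase, rose by 2.93 ± 0.18 (adjusted p = 2.49e-06), while Vcam1 changed by -2.25, Lcn2 by -1.66 and Ccnd1 by -0.54, so 1 of 17 was higher and 3 were lower, beside 13.2% and 17.5% of all genes. With FoxQ1 siRNA Egr2 rose by 1.62 ± 0.14 (adjusted p = 1.34e-05) and Nr4a1 by 0.23, and the cyclin-dependent kinase gene Cdk4 fell by 1.61 ± 0.09 (adjusted p = 9.24e-07). These 2 higher and 1 lower of 17 stand beside 11.3% and 8.28% of all genes. Egr2 was read from different probe sets in the NMuMG and NM18 tables. The medians of this list were 0.08 in newly made and 0.04 in total RNA, -0.01 with TGF-b1 in NM18 cells and 0.00 with FoxQ1 siRNA.

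Of 8 measured osmotic targets of Nfat5, 1 was called higher and 1 lower at 2 h in each kind of RNA. Over all genes the shares were 3.35% and 2.79% in newly made and 1.46% and 1.02% in total RNA. The kinase gene Sgk1 rose by 0.74 in newly made and 0.91 in total RNA, and Ddit4l changed by -0.63 and -0.94. With TGF-b1 in NM18 cells 4 rose and 1 fell, where 13.2% and 17.5% of all genes did. Among them Sgk1 rose by 2.31 ± 0.16 (adjusted p = 4.22e-06), the taurine transporter gene Slc6a6 by 0.55 and the heat shock gene Hspa1b by 0.93, and Ddit4l changed by -0.35. With FoxQ1 siRNA 1 of the 8 was called, Slc6a6 at -0.64 ± 0.11 (adjusted p = 0.00157), where 11.3% of all genes were called higher and 8.28% lower. The list medians, in the same order, were -0.08, -0.10, 0.18 and -0.08. The TGF-b1 response genes Smad7, Skil and Klf10 rose at 2 h in both kinds of RNA, 3 of the 4 measured, and all 4 rose at 40 h. Of all genes 3.35% in newly made and 1.46% in total RNA were called higher at 2 h, and 13.2% at 40 h.

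**Figure D5:**
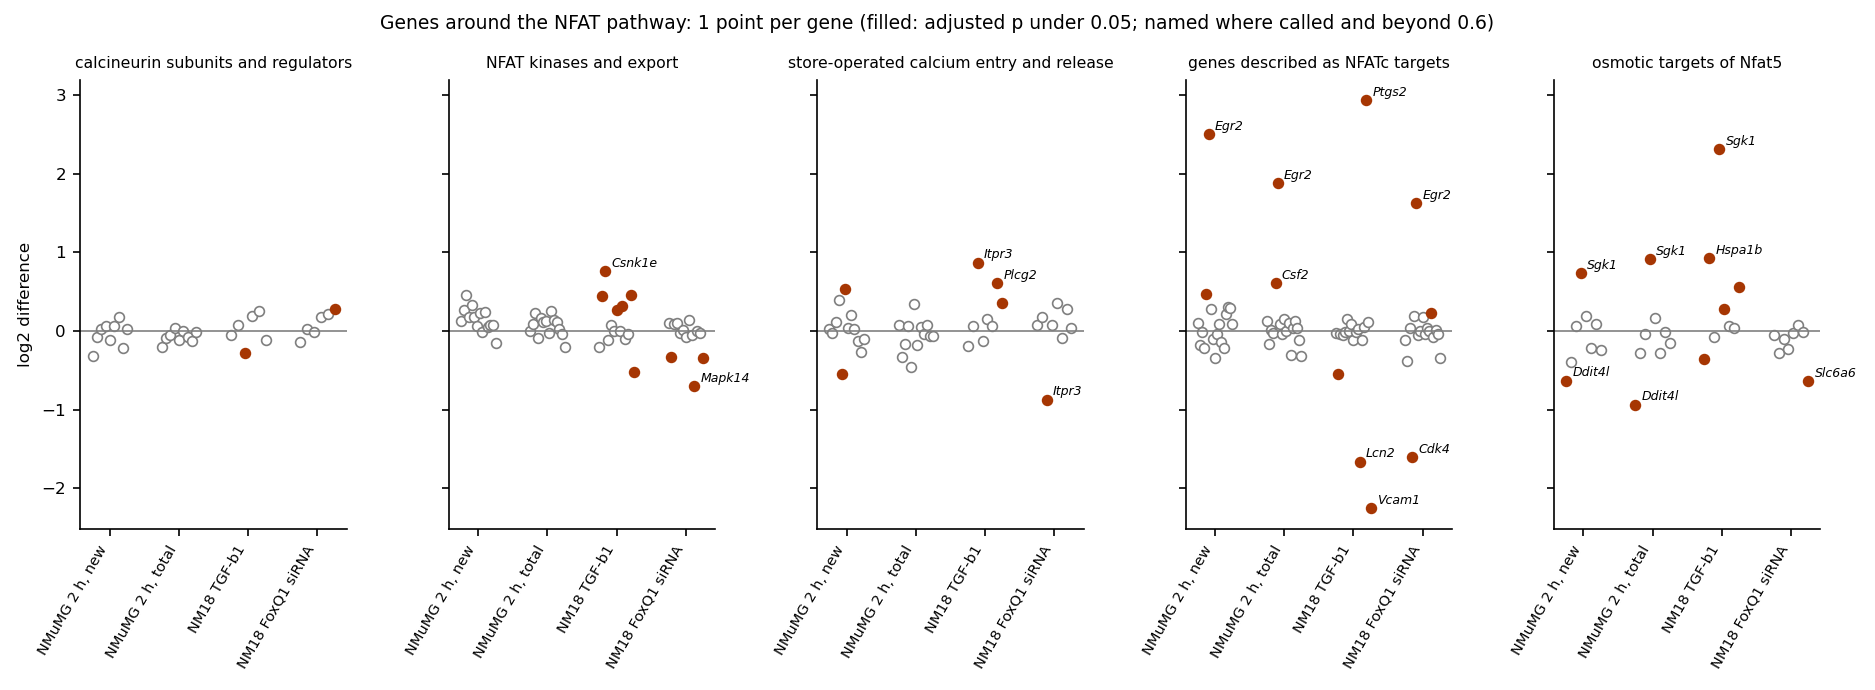
Log2 difference (vertical axis) of each measured gene of 5 lists around NFAT, for TGF-b1 at 2 h in newly made and total RNA of NMuMG cells and for TGF-b1 and FoxQ1 siRNA in NM18 cells; each point is 1 gene, filled where the adjusted p was under 0.05. Most points lie near 0 and the largest values belong to single genes such as Egr2, Ptgs2 and Sgk1.

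Over the 12 NMuMG arrays the genes whose levels followed Nfatc2 most closely were Tmem88 (Pearson r = 0.99), Prag1, Pdgfb, Lce1f and Cish (0.98 each), and those closest to Rcan1 were Tmc7, Atp10d, Epg5, Bmpr2 and Fbxw7 (0.97 to 0.98). Over the 9 NM18 arrays the closest to Nfatc2 were Cemip2, Slc9a8, Ptbp2, Nckipsd and Nprl3 (0.95 to 0.98), and to Rcan1 Dctn1, Nova1, Dnajc13, Slc35c1 and Bcl2l10 (0.92 to 0.97). No gene was among the 5 closest in both tables for either member. Lists of 5 drawn from 18193 and 12393 genes can easily share none. Nfatc2 was also read from different probe sets in the tables (1439205_at and 1426032_at), so nothing is read from this. The arrays share treatment groups, and the values are a description.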

How the data were processed

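Deposited log2 values per probe set were used for 12 NMuMG and 9 NM18 arrays. No source used here gives how the authors corrected background and normalized; the log2 scale was read from the values (2.34 to 14.8 and 4.57 to 14.6). The submitters' processing notes list affy 1.18.2, with no step attached. Per the labels' protocols NMuMG RNA was amplified over a pair of rounds and NM18 RNA was labelled by 3' in vitro transcription. Of 45101 and 22690 probe sets, 34945 and 20380 carried 1 gene symbol, 932 and 691 several and 9160 and 1555 none. limma 3.58.1 (R 4.3.3; lmFit, eBayes, 2-sided) was fitted to each table over all its groups, with Benjamini-Hochberg adjustment over all genes and calls at an adjusted p under 0.05; the code was tested on simulated data. Intervals are 95%. With 3 arrays a group, precision is limited by their number. The 7 genes and all lists were chosen with earlier results of these data known. Named were the 7 genes, the 2 to 4 list genes with the smallest p per comparison, the 5 genes closest to Nfatc2 and to Rcan1 per table, and Foxq1. Same-numbered arrays deviated together in every pair (r over 0.1) in the 2 h and NM18 comparisons, and in 2 of 3 pairs between kinds of RNA. In newly made RNA their r ran from 0.34 to 0.73. A differently numbered pair had 0.35 there, and another had 0.16 between kinds of RNA with TGF-b1, so shared numbers need not mark pairs. The main fit did not pair arrays. Alternatives were quantile normalization, median centring, the compared groups only, genes above the median, the mean of probe sets, a replicate block, a trended robust fit, each array left out and, added after seeing the data, a fit over all probe sets.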

Additional observations from a re-analysis of the deposited data

How the results depend on the processing

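Over the 42 member comparisons, 572 alternatives gave values: 532 kept the side of the threshold, 23 lost a call, 17 gained one and 0 reversed a called value. The 532 include uncalled values that changed sign. For Ppp3ca in newly made against total RNA of control cells, alternatives to the 0.05 ran from -0.14 to 0.41. Counts of called genes over the whole tables moved by over 1.5 times in a few: the 1116 genes of the 2 h response in newly made RNA became 680 in a fit on the compared groups only; the 452 in total RNA became 701 with the replicate block; and the 12 genes whose response differed between kinds of RNA became 21 with quantile normalization and 39 with the replicate block, with 4 to 20 when 1 array was left out. For the 2 h differences, the mean of all probe sets instead of the highest gave 0.63 for Nfatc2, 0.32 for Rcan1 and 0.34 for Nfat5 in newly made RNA; in total RNA it gave 0.64 for Nfatc2, 0.63 for Nfatc1 and 0.19 for Nfat5. The replicate block changed no call of a member other than those given beside the results. The cause of these shifts was not tested. Signal close to the lower quartile of an array, as for several probe sets of Nfatc2, Nfatc4 and Nfat5, limits what can be detected there.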
